A study of Mus musculus with 11 samples.

Results

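The genes described here are 10 members of the Wnt system that patterns the hepatocytes around the central vein, measured in liver RNA of AMLN *ob/ob*-MASH mice. They were chosen by gene symbol and not by their levels: the ligands *Wnt2* and *Wnt9b*, the Wnt-enhancing protein *Rspo3*, and the pericentral target genes *Axin2*, *Lgr5*, *Znrf3*, *Tbx3*, *Oat*, *Rhbg* and *Slc1a2*. All 10 symbols were found among the 46603 genes of the count table, and 9 of them passed the filter on low counts, as did 13880 genes in all. *Rhbg* did not pass, and it is given by its values and by an exact test.

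The mice were male and leptin-deficient, of the line B6.V-Lep ob/JRj (*ob/ob*). From 5 to 6 weeks of age they received the AMLN diet, which is rich in fat with trans-fat, fructose and cholesterol, for 15 weeks before treatment and throughout it. INT-767, a bile acid derivative that activates the bile acid receptors FXR and TGR5, was given at 10 mg/kg once daily for 8 weeks to 4 of the mice, and the other 7 received vehicle on the same diet. All had a wedge biopsy of the liver before treatment and were admitted by their steatosis and fibrosis scores, so both groups carry the obesity genotype, the diet and the liver disease, and no lean or chow-fed liver was analysed here. Each library is bulk polyA RNA from a piece of the left lateral lobe of 1 mouse, in which pericentral and periportal hepatocytes, vessels and other cells are mixed. In such samples, fewer cells of a type and less RNA per cell cannot be told apart.

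Wnt proteins bind Frizzled receptors together with the coreceptors Lrp5 and Lrp6, which spares beta-catenin from destruction and lets it switch on genes with TCF/LEF factors in the nucleus. In the liver the endothelium of the central vein is the best known source of Wnt2, Wnt9b and Rspo3, and the signal is received by the nearest hepatocytes, which take up ammonium, make glutamine and carry many drug-metabolising enzymes. Several targets act back on the pathway: Axin2 helps to destroy beta-catenin, Znrf3 and its relative Rnf43 remove Frizzled from the cell surface, and Lgr5 is a receptor through which Rspo3 restrains Znrf3 and Rnf43.

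Total counts were between 7966963 and 15295230 in the vehicle mice (median 10878327, n = 7) and between 7381211 and 16022459 in the INT-767–treated mice (median 12034846.5, n = 4). Levels are given as CPM, counts per 1000000 of the library size scaled by TMM, a factor that corrects for differences in library composition. Fold changes are log2 of INT-767 over vehicle from edgeR's quasi-likelihood test, with the standard error (SE). An adjusted *p* is that test's *p* after Benjamini-Hochberg correction for all 13880 genes, and genes under 0.05 were called.

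The livers carried their labelled tissue. The hepatocyte marker albumin (*Alb*) stood at 43057 ± 4297 CPM with vehicle and 63913 ± 19494 CPM with INT-767 (SD, n = 7 and 4). Of 7 hepatocyte markers, all were tested and 0 passed the adjusted threshold, against 9.72% of all tested genes. At an unadjusted *p* under 0.05 by edgeR, 3 of the 7 were higher, against 17.4% of all tested genes. The summed level of these markers ran from 55384 to 73688 CPM in the vehicle mice and from 70952 to 106083 CPM in the INT-767–treated mice, and its part in the results on hepatocyte targets was not tested. Vehicle mice 1 and 7 stood apart from their group. Over genes, the median Spearman's rho of vehicle mouse 1 with the other vehicle mice was 0.923, against 0.959 with the INT-767–treated mice, and for vehicle mouse 7 the values were 0.950 and 0.957. INT-767 mouse 1 was likewise no closer to its own group (0.953) than to the other (0.957). Results are therefore also given without vehicle mice 1 and 7, a choice made after seeing the data.

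No member passed the adjusted threshold with all 11 mice: of the 9 tested genes, 0 rose and 0 fell, against a background of 9.72% of all tested genes called in either direction, 5.04% higher and 4.68% lower. At an unadjusted *p* under 0.05, 3 of the 9 were found (33.3%), against 32.9% of all tested genes. These were *Wnt2*, with a positive fold change, and *Axin2* and *Tbx3*, with negative ones. The log2 fold change was below 0 in 8 of the 9 and above 0 in 1, against 50.6% and 49.4% of all tested genes, but below 0 in 5 and above 0 in 4 with an offset that corrects, per mouse, for GC content and transcript length. Without the offset the members had a median of -0.18, where the median of all tested genes was -0.01. When libraries were scaled by their size only, the median of all tested genes was -0.22. In that setting 8 members ran from -1.27 (*Axin2*) to -0.29 (*Wnt9b*), and *Wnt2* was at 0.90. For no member were the groups without overlap, which was seen in 7.51% of the tested genes, 3.87% with INT-767 higher and 3.65% with INT-767 lower.

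**Figure D1:**
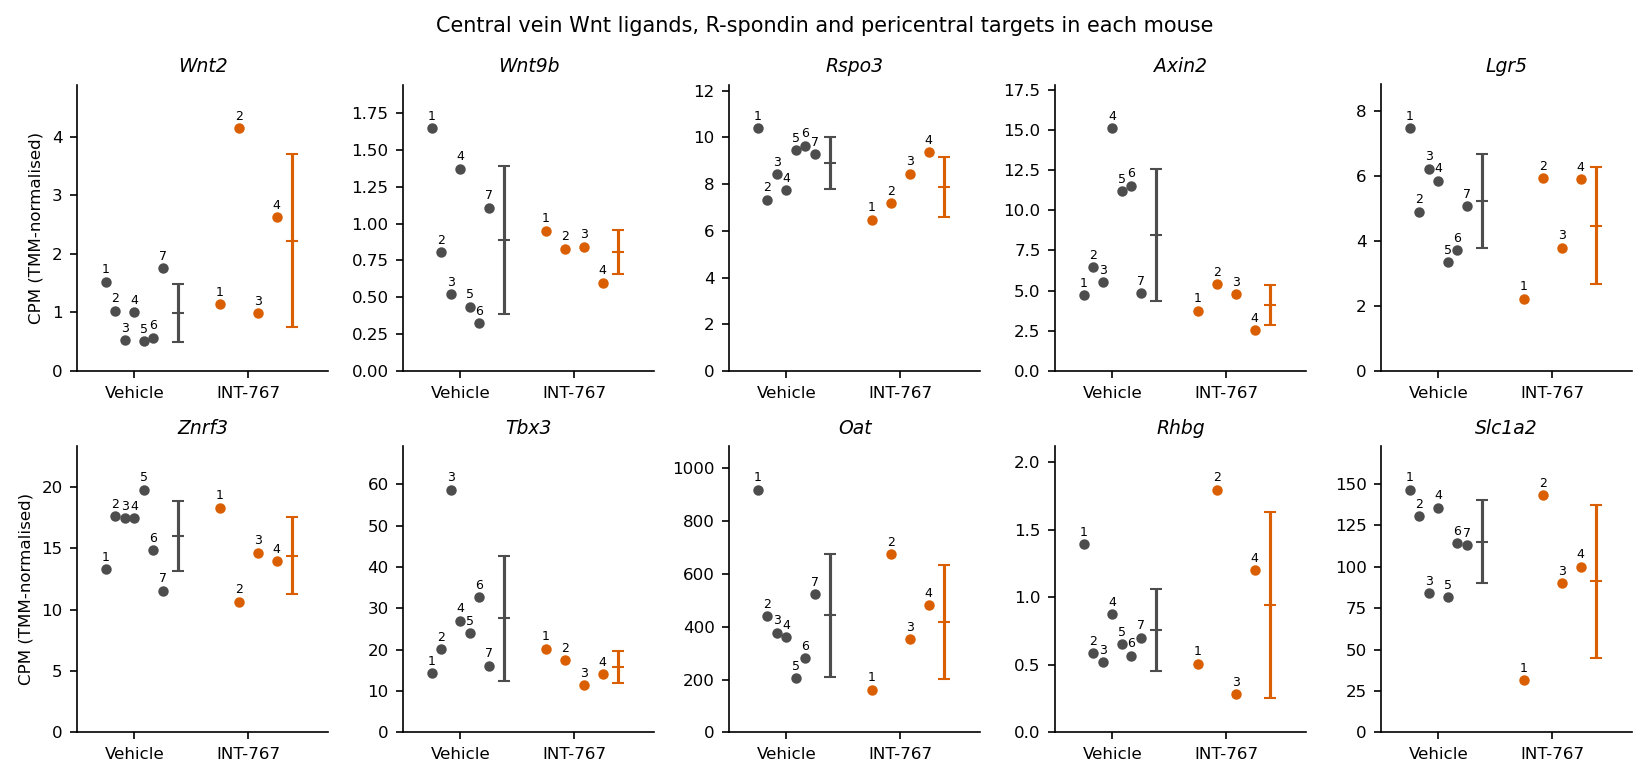
TMM-normalised CPM of the 10 genes (vertical axes, each from 0) in each of 7 vehicle mice and 4 INT-767–treated mice (points, with the mouse number), with the group mean and SD beside the points. The INT-767–treated mice overlap the vehicle mice in every panel, lying at 2.55 to 5.39 CPM in *Axin2* and at 11.4 to 20.3 CPM in *Tbx3*, with 2 of the 4 below every vehicle mouse in each of these genes.

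Among the ligands, *Wnt2* (chr6:17988940-18030585, minus strand, 5 exons, GRCm38) was a low-abundance transcript with 5 to 35 counts per mouse. It ranged from 0.509 to 1.75 CPM in the vehicle mice, with a median of 0.998 CPM. The INT-767–treated mice had 1.14, 4.15, 0.986 and 2.62 CPM. Mice 2 and 4 of the INT-767 group lay above all vehicle mice, and mice 1 and 3 lay inside the vehicle range. The group means were 0.985 ± 0.499 and 2.22 ± 1.48 CPM (SD, n = 7 and 4), a log2 fold change of 1.14 (SE 0.46, adjusted *p* = 0.113 by edgeR). A two-sided Mann-Whitney test, exact over all assignments of the mice, had *p* = 0.164. The fold change was 0.68 without INT-767 mouse 2 (adjusted *p* = 0.399).

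*Wnt9b*, the other central vein ligand, had 4 to 19 counts per mouse (chr11:103727364-103749821, minus strand, 4 exons). Its level ran from 0.325 to 1.65 CPM across the vehicle mice (median 0.806) and was 0.953, 0.83, 0.845 and 0.600 CPM with INT-767. All 4 INT-767–treated mice lay inside the vehicle range. The log2 fold change was -0.10 (SE 0.44, adjusted *p* = 0.885), with a 95% interval from -1.06 to 0.86 that leaves room for a difference of about that size in either direction.

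*Rspo3* encodes the R-spondin that holds Znrf3 and Rnf43 away from Frizzled receptors (chr10:29452416-29535867, minus strand, 5 exons). With vehicle its lowest, median and highest levels were 7.33, 9.28 and 10.4 CPM. With INT-767 they were 6.48, 7.19, 8.45 and 9.37 CPM in mice 1 to 4. INT-767 mice 1 and 2 lay below all vehicle mice, and mice 3 and 4 within their range. The log2 fold change was -0.18 (SE 0.16, 95% interval from -0.53 to 0.18, adjusted *p* = 0.443), the narrowest interval of the 9 tested members. Leaving out INT-767 mouse 1 gave -0.085, mouse 4 of that group -0.28. A gene on the opposite strand, *Gm48159*, covers 13.1% of the exon bases of *Rspo3*, and whether the counting used strand is not given in the sources used here.

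Since vessels are the best known source of these ligands, endothelial markers were set beside them. Of 8 markers of central vein and large vessel endothelium, 1 fell, *Vwf*, the von Willebrand factor of vessel walls (14.8 to 5.91 CPM in the group means, log2 fold change -1.31, adjusted *p* = 0.0360), and 0 rose. The background was 4.68% of all tested genes called lower and 5.04% higher. At an unadjusted *p* under 0.05 by edgeR, 2 of the 8 were lower, against 15.6% of all tested genes. The summed level of the 8 was 141 ± 15.2 CPM with vehicle and 94.4 ± 22.1 CPM with INT-767 (SD, n = 7 and 4), and its most abundant gene was *Fabp4* at 64.0 and 42.4 CPM. By mouse, the sum ranged from 121 to 168 CPM with vehicle, and it was 102, 79.2, 74.2 and 122 CPM with INT-767. Of 8 sinusoidal endothelial markers 0 passed, and 2 were lower at an unadjusted *p* under 0.05 by edgeR. Their sums were 270 ± 85.1 and 192 ± 34.4 CPM. The part of these markers in the ligand values was not tested. None of the markers was at 0 in all mice.

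*Axin2*, a scaffold of the beta-catenin destruction complex and a general target of Wnt signalling, had the smallest *p* of the members (chr11:108920349-108950783, plus strand, 11 exons). In the vehicle mice it spanned 4.69 to 15.1 CPM around a median of 6.45 CPM. The INT-767–treated mice had 3.75, 5.39, 4.79 and 2.55 CPM. All 4 were under the vehicle median and 2 of them were under every vehicle mouse, while vehicle mice 1 and 7 lay among the INT-767–treated mice at 4.69 and 4.85 CPM. The means were 8.47 ± 4.10 and 4.12 ± 1.25 CPM (SD, n = 7 and 4), a log2 fold change of -1.06 (SE 0.37, 95% interval from -1.87 to -0.25). This missed the adjusted threshold (unadjusted *p* = 0.0143, adjusted *p* = 0.0824 by edgeR). The exact two-sided Mann-Whitney *p* was 0.0424, or 0.181 after adjustment over all tested genes. DESeq2 placed the gene past the threshold (log2 fold change -1.03, adjusted *p* = 0.0382), as did edgeR without vehicle mouse 1 (-1.16, adjusted *p* = 0.0401). It was not called by limma-voom (-0.998, adjusted *p* = 0.102). By edgeR it was -0.77 with the offset for GC content and length (adjusted *p* = 0.110). Without INT-767 mouse 4 it was -0.88 (adjusted *p* = 0.198 by edgeR).

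Promoter sequence from RefSeq (GRCm38.p6) was at hand for *Wnt2*, *Wnt9b*, *Axin2*, *Oat* and *Slc1a2*, 5 of the 10 members, as windows of 250 bases before and 50 after a start site. They were searched on both strands for the TCF/LEF letters CTTTGNN, in which each N had to be A or T. Of the 5 windows, 1 held a match, against 16.9% of 32851 windows of the same length and 12.1% of the 13106 windows of tested genes. The 250 bases upstream are shown for *Axin2* (chr11:108920099-108920348, plus strand), the member with the smallest *p*, and for *Slc1a2* (chr2:102706188-102706437, plus strand), the window with the match. Capitals mark the matching letters, which read on the minus strand and lie at position -207 from the start site.
Axin2: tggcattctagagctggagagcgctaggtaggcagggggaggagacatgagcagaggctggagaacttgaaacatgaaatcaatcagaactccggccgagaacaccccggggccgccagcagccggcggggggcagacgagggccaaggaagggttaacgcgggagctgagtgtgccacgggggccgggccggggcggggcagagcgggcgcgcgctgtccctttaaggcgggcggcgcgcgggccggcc
Slc1a2: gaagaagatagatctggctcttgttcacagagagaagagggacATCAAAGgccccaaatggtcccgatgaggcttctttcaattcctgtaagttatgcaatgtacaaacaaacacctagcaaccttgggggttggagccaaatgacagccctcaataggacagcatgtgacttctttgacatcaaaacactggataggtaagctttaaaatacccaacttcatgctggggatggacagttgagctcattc
The *Axin2* stretch has 69.2% G and C and the *Slc1a2* stretch 44.8%. The match is a description of letters in a window, and a window without one says nothing of TCF/LEF binding elsewhere in the gene. The *Slc1a2* window belongs to a start site that lies inside the gene as annotated by GENCODE.

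*Lgr5*, the R-spondin receptor found on hepatocytes next to the central vein, had similar group means of 5.24 ± 1.44 and 4.47 ± 1.80 CPM (SD, n = 7 and 4; chr10:115450311-115587780, minus strand, 11 exons). It stood at 3.34 to 7.48 CPM in the vehicle mice (median 5.08) and at 2.22, 5.94, 3.80 and 5.92 CPM in the INT-767–treated mice. INT-767 mouse 1 alone was below the vehicle range. The log2 fold change was -0.23 (SE 0.30, adjusted *p* = 0.597), and leaving out INT-767 mouse 1 gave 0.018, mouse 2 of that group -0.41, mouse 4 -0.42, and vehicle mouse 1 -0.12.

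*Znrf3*, the ubiquitin ligase that clears Frizzled receptors, was at 11.6 to 19.8 CPM with vehicle (median 17.5; chr11:5276324-5444847, minus strand, 9 exons). With INT-767 the values were 18.3, 10.6, 14.6 and 13.9 CPM. Only INT-767 mouse 2 lay outside the vehicle range, below it. The log2 fold change was -0.15 (SE 0.19, adjusted *p* = 0.576). Leaving out INT-767 mouse 2 gave -0.043, mouse 1 of that group -0.29, and vehicle mouse 5 -0.099. The direction turned with the offset for GC content and length (0.25) and with that offset and a block for the mouse number (0.13).

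*Tbx3*, a T-box transcription factor that represses genes in pericentral hepatocytes, was the other member with a lower level at an unadjusted *p* under 0.05 (chr5:119670669-119684724, plus strand, 7 exons). The vehicle mice ran from 14.3 to 58.7 CPM with a median of 24.0 CPM, and the highest of them, mouse 3, stood well above the next at 32.8 CPM. The INT-767–treated mice had 20.3, 17.4, 11.4 and 14.2 CPM. All 4 were below the vehicle median and 2 were below every vehicle mouse. The means were 27.6 ± 15.1 and 15.8 ± 3.85 CPM (SD, n = 7 and 4), with a log2 fold change of -0.80 (SE 0.36, adjusted *p* = 0.141 by edgeR) and an exact two-sided Mann-Whitney *p* of 0.109. Without vehicle mouse 3 the fold change was -0.50 (adjusted *p* = 0.215), and with the offset for GC content and length it was -0.44 (adjusted *p* = 0.297).

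The metabolic targets were led by *Oat*, ornithine aminotransferase, which feeds ornithine into glutamate synthesis (chr7:132557478-132576398, minus strand, 10 exons). Its levels were 206 CPM at the lowest, 378 at the median and 920 at the highest in the vehicle mice. With INT-767 they were 162, 675, 354 and 482 CPM. INT-767 mouse 1 was below all vehicle mice and the other 3 lay inside their range. The spread within each group exceeded the difference between the means of 444 ± 234 and 418 ± 216 CPM (SD, n = 7 and 4), and the log2 fold change was -0.09 (SE 0.41, adjusted *p* = 0.891). Its sign turned without vehicle mouse 1 (0.20) and without INT-767 mouse 1 (0.19), and it was -0.43 without INT-767 mouse 2.

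*Slc1a2* is a glutamate transporter of the cell membrane (chr2:102658659-102790784, plus strand, 11 exons). Vehicle levels ran from 81.5 to 147 CPM, with a median of 114 CPM. The INT-767–treated mice had 31.4, 143, 90.0 and 100 CPM, with mouse 1 far below all vehicle mice and the other 3 inside their range. The log2 fold change was -0.34 (SE 0.32, adjusted *p* = 0.453), and leaving out INT-767 mouse 1 gave -0.047, mouse 2 of that group -0.66. The direction turned with the offset for GC content and length (0.16).

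*Rhbg*, an ammonium transporter, had 2 to 16 counts per mouse and was not tested by edgeR (chr3:88242874-88254709, minus strand, 10 exons). It stood between 0.520 and 1.39 CPM in the vehicle mice (median 0.654) and at 0.508, 1.80, 0.282 and 1.20 CPM in the INT-767–treated mice. These surrounded the vehicle values, with 2 below and 1 above all of them, and the exact two-sided Mann-Whitney *p* was 0.927. The gene model *Gm38392* covers 61.4% of the exon bases of *Rhbg* on the same strand, with 0 to 2 counts of its own per mouse, so reads could have been split or dropped in counting.

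Levels of different genes were compared per exon length, as RPKM computed from the CPM and the bases of the annotated exons. In the vehicle mice the order was *Oat* (188 ± 99.0), *Slc1a2* (8.77 ± 1.90), *Tbx3* (4.17 ± 2.28), *Rspo3* (2.88 ± 0.357), *Znrf3* (2.03 ± 0.363), *Axin2* (1.54 ± 0.745), *Lgr5* (0.510 ± 0.140), *Wnt2* (0.437 ± 0.221), *Rhbg* (0.391 ± 0.157) and *Wnt9b* (0.197 ± 0.112 RPKM, SD, n = 7). The ranges of neighbours in this order were apart only between *Oat* and *Slc1a2* and between *Axin2* and *Lgr5*. In the INT-767–treated mice *Wnt2* had a mean of 0.986 ± 0.655 RPKM and *Axin2* of 0.748 ± 0.226 RPKM (SD, n = 4). Their ranges in these mice overlapped, at 0.437 to 1.84 RPKM for *Wnt2* and 0.463 to 0.979 RPKM for *Axin2*.

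Removal of vehicle mice 1 and 7 changed the calls. Of the 8 members then tested, 3 (37.5%) passed the adjusted threshold, against 35.6% of 13644 tested genes, 19.8% higher and 15.8% lower. *Wnt2* was higher (log2 fold change 1.59, SE 0.47, adjusted *p* = 0.0245), from 0.724 ± 0.264 CPM in the 5 remaining vehicle mice. *Axin2* (-1.30, SE 0.33, adjusted *p* = 0.0164) and *Tbx3* (-1.03, SE 0.31, adjusted *p* = 0.0258) were lower, from 9.96 ± 3.95 and 32.5 ± 15.4 CPM. The members that did not pass were *Rspo3* (-0.12), *Lgr5* (-0.11), *Znrf3* (-0.27), *Oat* (0.33) and *Slc1a2* (-0.26), while *Wnt9b* and *Rhbg* were not tested. These mice were left out because their profiles were closer to the other group, which by construction widens the difference between the groups, from 1349 to 4861 genes called in all, and INT-767 mouse 1 was kept.

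**Figure D2:**
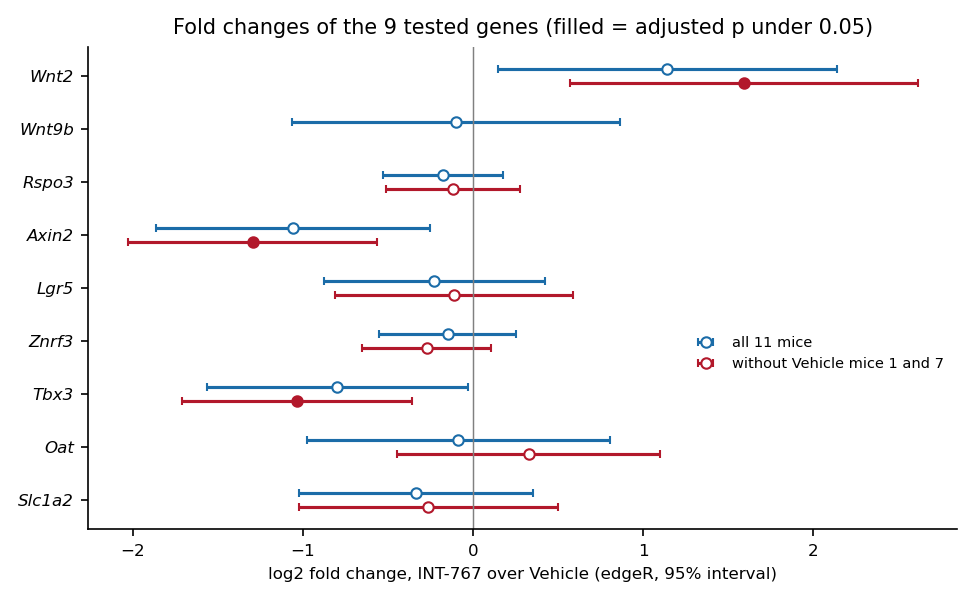
Log2 fold change of INT-767 over vehicle (horizontal axis) with its 95% interval for the 9 tested genes, with all 11 mice (blue) and without vehicle mice 1 and 7 (red), filled where the adjusted *p* was under 0.05. No blue point is filled, and the filled red points are *Wnt2* at 1.59, *Axin2* at -1.30 and *Tbx3* at -1.03. *Wnt9b* has no red point because it was not tested there.

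The members did not vary as 1 block across the mice. Likeness was measured as the root mean square difference of standardised log2(CPM + 0.5) over the 11 mice, where 0 means the same profile, and it is a description of libraries that the genes share. The closest pair was *Lgr5* and *Oat* (0.480), followed by *Lgr5* and *Slc1a2* (0.641) and *Oat* and *Slc1a2* (0.665). *Wnt2* was closest to *Rhbg* (0.695), both of them low in counts, and *Axin2* to *Tbx3* (1.02). INT-767 mouse 1 had the lowest level of all 11 mice in *Rspo3*, *Lgr5*, *Oat* and *Slc1a2*, and vehicle mouse 1 had the highest in *Wnt9b*, *Rspo3*, *Lgr5*, *Oat* and *Slc1a2*. INT-767 mouse 2 was the highest of all in *Wnt2* and *Rhbg* and the lowest in *Znrf3*.

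**Figure D3:**
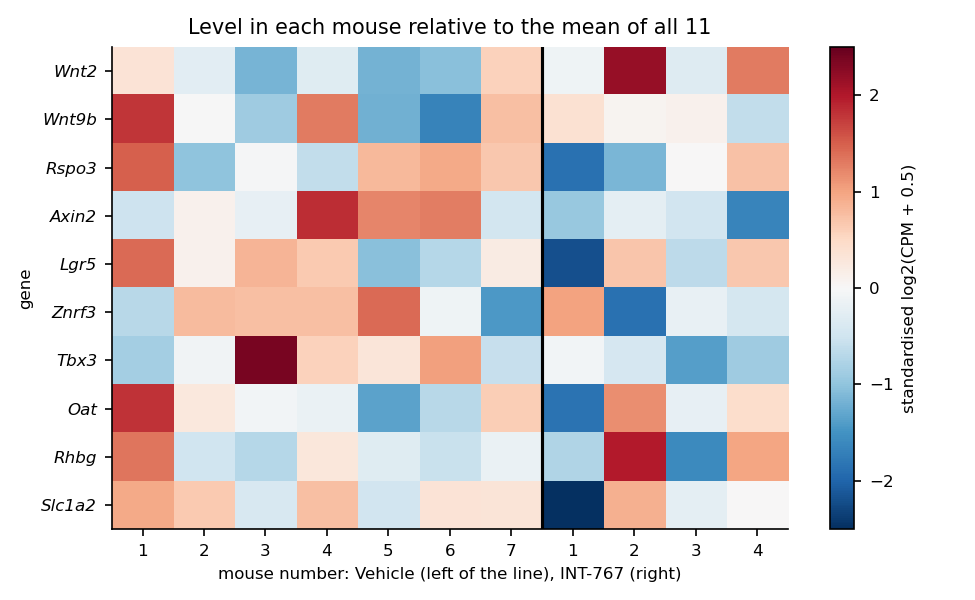
Standardised log2(CPM + 0.5) of the 10 genes (rows) in 7 vehicle mice and 4 INT-767–treated mice (columns, split by the line), red above and blue below the mean of all 11 mice. Vehicle mouse 1 is red and INT-767 mouse 1 is blue in *Rspo3*, *Lgr5*, *Oat* and *Slc1a2*, while *Axin2* is highest in vehicle mice 4, 5 and 6.

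Among 13274 genes with a mean of at least 1 CPM, those with the profile nearest to *Axin2* were *Chst12* (0.351), *5930430L01Rik* (0.365), *Kcnab2* (0.380), *Gm37352* (0.391) and *Gm43984* (0.399). By edgeR with all mice 0 of these 5 passed the adjusted threshold, with log2 fold changes between -2.62 and -0.85, while all 5 passed with DESeq2, without vehicle mouse 1 and without vehicle mice 1 and 7. *Axin2* passed in the same settings, so these calls largely follow from choosing genes with its profile. Over all genes, DESeq2 called 1375 higher and 1335 lower, and edgeR without vehicle mouse 1 called 1906 and 1370. Without vehicle mice 1 and 7, 35.6% of all tested genes were called. Nearest to *Slc1a2* were *Aldh3a2* (0.383), *Lhpp* (0.462), *Ech1* (0.503), *Samsn1* (0.531) and *Vnn1* (0.531), of which *Aldh3a2* encodes a fatty aldehyde dehydrogenase and *Ech1* an enzyme of fatty acid oxidation. *Lhpp* is on the list of other pericentral hepatocyte genes described below. Of the 5 genes nearest to *Slc1a2*, 0 passed by edgeR, with log2 fold changes between -0.65 and -0.11. *Vnn1* passed with voom sample weights (adjusted *p* = 0.0418).

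The rest of the pathway was read from 6 lists of 73 genes: other ligands and R-spondins, secretion, receptors, extracellular inhibitors, the beta-catenin pathway inside the cell and other general targets. Of the 44 tested, 2 rose and 4 fell, 13.6% in all against the background of 9.72%, and 12 (27.3%) had an unadjusted *p* under 0.05 against 32.9%. The median log2 fold change was -0.30.

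Other general targets were the list with the most falls, 2 of 6 tested, against 4.68% of all tested genes called lower. At an unadjusted *p* under 0.05 by edgeR, 3 of the 6 were lower, against 15.6% of all tested genes. In 2 of the 6 the groups did not overlap, against 7.51%. *Rnf43*, the ubiquitin ligase related to Znrf3, was at 18.3 to 37.7 CPM with vehicle (median 29.3) and at 20.5, 14.4, 18.3 and 12.6 CPM with INT-767. All 4 INT-767–treated mice were under the vehicle median (log2 fold change -0.77, SE 0.21, adjusted *p* = 0.0381). *Nkd2*, an inhibitor that binds Dishevelled, fell from 1.69 ± 0.638 to 0.611 ± 0.190 CPM (log2 fold change -1.47, SE 0.38, adjusted *p* = 0.0311), with no overlap between the groups but as few as 3 counts in a mouse.

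Outside the cell, the ligand *Wnt5a* fell from 7.16 ± 1.80 to 4.13 ± 0.779 CPM without overlap (log2 fold change -0.80, adjusted *p* = 0.0468), and *Wnt5b* rose from 11.4 ± 1.60 to 20.3 ± 8.06 CPM (0.83, adjusted *p* = 0.0382). Both ligands are best known for signalling without beta-catenin. *Notum*, a secreted enzyme that inactivates Wnt proteins, rose from 11.6 ± 2.06 to 22.3 ± 7.65 CPM (0.95, SE 0.22, adjusted *p* = 0.0239), with 3 of the 4 INT-767–treated mice above all vehicle mice. Genes on the opposite strand cover 38.1% of its exon bases. *Dkk3*, a relative of the Dickkopf inhibitors, fell from 14.2 ± 2.94 to 8.34 ± 2.27 CPM (-0.77, adjusted *p* = 0.0426). Errors are SD over 7 and 4 mice. Each of these 6 calls was lost when vehicle mouse 5, vehicle mouse 6, INT-767 mouse 2 or INT-767 mouse 4 was left out, at adjusted *p* up to 0.151, and *Notum* was lost for no other mouse. Further mice whose removal lost a call were vehicle mice 2 to 4 for *Wnt5a*, *Wnt5b* and *Rnf43*, vehicle mice 3 and 7 and INT-767 mouse 1 for *Dkk3*, INT-767 mouse 1 for *Nkd2*, INT-767 mice 1 and 3 for *Wnt5a* and INT-767 mouse 3 for *Rnf43*. With all mice, *Wnt5b* was not called with upper-quartile factors (adjusted *p* = 0.0550), library size only (0.0801) or limma-voom (0.0683). *Wnt5a* was not called with the offset for GC content and length (-0.47, adjusted *p* = 0.0758), limma-voom (0.0575) or the looser filter of 1 count (0.0816). *Dkk3* and *Nkd2* were not called with the offset (0.0843 and 0.0653) or with voom sample weights (0.0720 and 0.0613), and *Dkk3* and *Rnf43* were not called with the looser filter (0.0656 and 0.0596).

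*Ctnnb1*, which encodes beta-catenin, was at 232 ± 22.2 CPM with vehicle and 220 ± 15.6 CPM with INT-767 (SD, n = 7 and 4; log2 fold change -0.08, 95% interval from -0.35 to 0.20, adjusted *p* = 0.669), and its partner *Tcf7l2* had a log2 fold change of -0.29 (adjusted *p* = 0.336). Of 17 tested genes of the pathway inside the cell 0 passed by the same test, with 9.72% as background. The R-spondin receptor *Lgr4* had 51.1 ± 14.2 and 77.5 ± 12.9 CPM (0.60, adjusted *p* = 0.0734), and *Wls*, which carries Wnt proteins to the cell surface, had 23.1 ± 4.57 and 15.7 ± 1.60 CPM without overlap (-0.56, adjusted *p* = 0.0562). Of 8 tested receptors and 2 secretion genes 0 passed by edgeR with TMM scaling. With all mice, *Lgr4* passed with DESeq2 (0.61, adjusted *p* = 0.0416) and with limma-voom with sample weights (0.77, adjusted *p* = 0.0139). *Wls* passed with DESeq2 (-0.56, adjusted *p* = 0.0245), upper-quartile factors (0.0430), library size only (0.0244), at least 10 counts in each mouse (0.0367) and the offset for GC content and length (-0.75, adjusted *p* = 0.00419). *Lgr4* also passed without vehicle mouse 1 or INT-767 mouse 1, and *Wls* without vehicle mouse 1 or vehicle mouse 4.

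Of 17 other pericentral hepatocyte genes tested, 0 rose and 2 fell (11.8%, against 9.72% of all tested genes called in either direction and 4.68% lower), with a median log2 fold change of 0.06. Those that fell were *Slc13a3*, a dicarboxylate transporter (68.1 ± 15.3 to 16.5 ± 9.59 CPM, log2 fold change -2.05, adjusted *p* = 0.0129, no overlap), and *Cyp7a1*, the rate-limiting enzyme of bile acid synthesis and a gene that FXR activation represses (198 ± 75.3 to 64.7 ± 19.0 CPM, -1.62, adjusted *p* = 0.0159). Both calls were lost without INT-767 mouse 2 (adjusted *p* = 0.0577 and 0.0705). *Glul*, glutamine synthetase of the innermost pericentral hepatocytes, was at 870 ± 282 and 749 ± 244 CPM (-0.22, adjusted *p* = 0.599). *Cyp2e1*, an ethanol-metabolising cytochrome P450, was at 3952 ± 1761 and 1974 ± 1395 CPM (-1.0, adjusted *p* = 0.162; 0.0273 without vehicle mice 1 and 7), and *Cyp1a2* had a log2 fold change of 0.43 (adjusted *p* = 0.454).

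Periportal hepatocyte genes stood in contrast by their counts, with 8 of 15 higher (53.3%, against 5.04% of all tested genes) and 0 lower, and a median log2 fold change of 1.08. The highest were *Hsd17b6*, a steroid dehydrogenase (133 ± 46.0 to 637 ± 227 CPM, log2 fold change 2.26), and *Hal*, which degrades histidine (83.3 ± 19.9 to 326 ± 136 CPM, 1.97), followed by *Ass1* of the urea cycle (1.31), *Gls2*, a liver glutaminase (1.28), *Otc* of the urea cycle (1.28) and *Cyp2f2* (1.23), with adjusted *p* between 0.0016 and 0.0199. Without INT-767 mouse 2 the call of *Otc* was lost (adjusted *p* = 0.0929). The difference between the periportal and the pericentral lists was not tested, and both lists were chosen with earlier results of these data known.

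**Figure D4:**
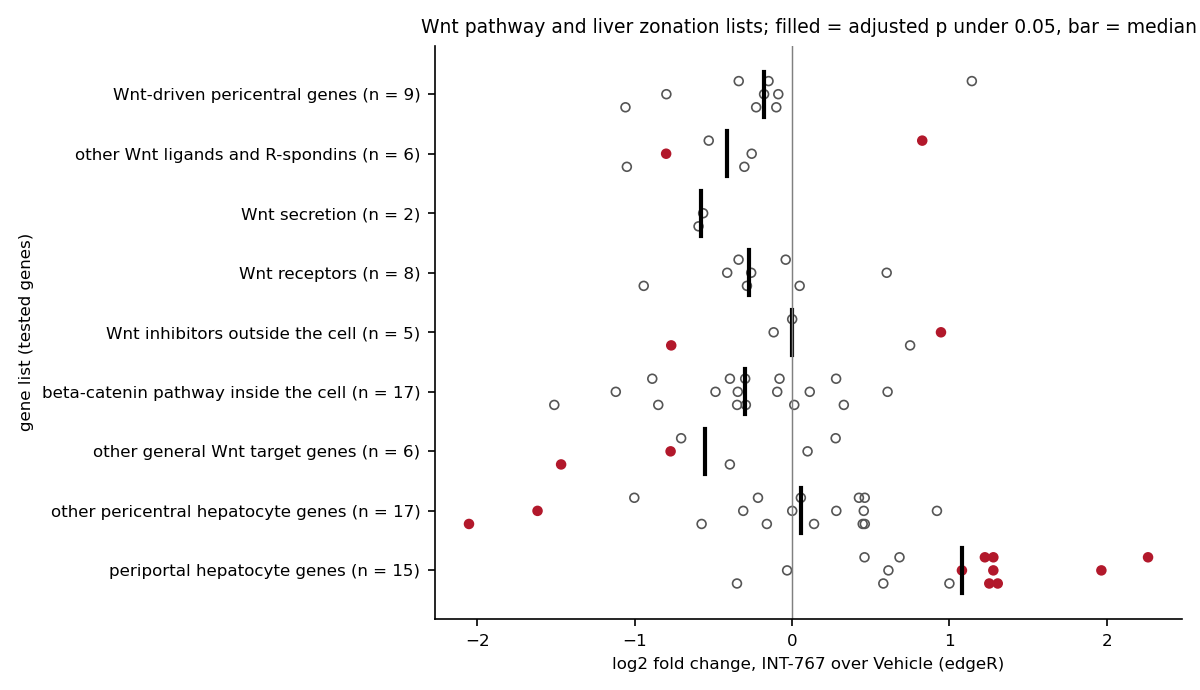
Log2 fold change of INT-767 over vehicle (horizontal axis) for each tested gene of the 10 members and of 8 related lists (rows, with the number tested), filled where the adjusted *p* was under 0.05, with the list median as a bar. The 9 tested members have a median of -0.18 and no filled point, and the 15 periportal genes have a median of 1.08 with 8 filled points.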

How the data were processed

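Liver RNA of 7 vehicle and 4 INT-767–treated mice was compared, with groups taken from the sample labels. Per the methods, the authors made TruSeq stranded mRNA libraries, which were run on a NextSeq instrument, and mapped reads to GRCm38 with STAR. The authors deposited 1 table of raw read counts per gene, 46603 genes by 11 mice, without normalization. How reads were counted, and with which strand setting, is not given in the sources used here. Nothing says that mice were litter mates or shared a batch.

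Counts were scaled by TMM factors, kept by filterByExpr (minimum count 10, minimum total count 15) and tested with glmQLFit (robust) and glmQLFTest in edgeR 4.0.16 (R 4.3.3), with treatment as the only term. Intervals are 95% and come from the fold change, the F statistic and its degrees of freedom. A Mann-Whitney test on CPM, two-sided and exact over all 330 assignments, was run per gene, with a smallest possible *p* of 0.00606. RPKM used the union of exon bases in GENCODE M21, which also gave coordinates and overlaps.

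The members were set by gene symbol and not by their levels, but they and the lists were chosen with earlier results of these data known. Genes named were all members, up to 6 called genes of each list by smallest *p*, *Glul*, *Lgr4*, *Rnf43*, *Ctnnb1*, *Tcf7l2*, *Wls*, *Cyp2e1* and *Cyp1a2* whatever their values, and the 5 genes nearest in profile to *Axin2* and to *Slc1a2*. Called marker genes of cell types are also named.

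Alternatives were RLE and upper-quartile factors, library size only, a filter of 1 count in total or of 10 counts in each mouse, DESeq2 1.42.0, limma-voom (limma 3.58.1) without and with sample weights, a block for the mouse number, an offset for GC content and transcript length (13835 genes), leaving out each mouse and a threshold of 0.01. The tests were run on simulated data with known changes. Figures were drawn with matplotlib 3.10.9.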

Additional observations from a re-analysis of the deposited data

Results flagged for a closer look

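In 3 of 82 groups of values examined, 1 mouse lay farther from the others of its group than Dixon's 95% limit allows, and chance gives this in about 1 in 20 groups. *Tbx3* was at 58.7 CPM in vehicle mouse 3, while the other vehicle mice had 14.3 to 32.8 CPM. *Rhbg* was at 1.39 CPM in vehicle mouse 1, against 0.520 to 0.873 CPM in the others. *Vnn1*, named for its profile near that of *Slc1a2*, was at 210 CPM in vehicle mouse 1.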

How the results depend on the processing

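With all mice, 0 members passed the adjusted threshold under every scaling, filter and voom alternative run, and of 199 comparisons of a member's fold change with an alternative, 182 kept direction and call, 5 became calls and 12 changed sign. The number of members lower was 1 with DESeq2, 0 to 1 when each mouse was left out and 2 without vehicle mice 1 and 7, a choice made after seeing the data, and the number higher was then 1. An exact Mann-Whitney *p* under 0.05 was found for 1 member, for 2 with upper-quartile factors, with library size only or without vehicle mice 1 and 7, and for 0 to 1 when each mouse was left out, with 0 without any of vehicle mice 2 to 6 or INT-767 mice 1, 3 or 4. Signs turned for *Wnt9b* (0.10 with limma-voom, 0.37 with sample weights, 0.13 with the GC and length offset, 0.032 without INT-767 mouse 4, in a range from -0.25 to 0.032 over the mice left out, without a value for vehicle mice 1, 2, 4, 5 or 7, where it did not pass the filter), *Lgr5* (0.018 without INT-767 mouse 1, range -0.42 to 0.018), *Znrf3* (0.25 with the offset, 0.13 with the block and offset), *Oat* (0.089 with sample weights, 0.20 without vehicle mouse 1, 0.19 without INT-767 mouse 1, range -0.43 to 0.20, 0.33 without vehicle mice 1 and 7) and *Slc1a2* (0.16 with the offset). They also turned for *Ctnnb1* (0.023 with sample weights, 0.10 with the offset, 0.11 with the block and offset) and *Ech1* (0.019 without INT-767 mouse 1, range -0.20 to 0.019), and the cause was not tested. None of these values passed the threshold.

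Over all genes, 700 were higher and 649 lower. The counts were 331 and 1026 with library size only (24.4% higher in place of 51.9%), 467 and 812 with upper-quartile factors (36.5%), 1375 and 1335 with DESeq2, which was given all 27306 genes with a count and its own filter, so that tool and filter changed together, 1658 and 1221 with voom sample weights, 158 and 87 at a threshold of 0.01, 2701 and 2160 without vehicle mice 1 and 7, and 164 to 1906 and 110 to 1370 when each mouse was left out. The offset gave 1073 and 811. With the mouse number as a block, 0 genes were higher and 0 lower (1347 at an unadjusted *p* under 0.05), and likewise 0 and 0 with the block and the offset (1681). The numbers do not pair the mice: deviations of same-numbered mice correlated at -0.69, 0.22, 0.15 and -0.48, and no INT-767–treated mouse correlated best with its own number. *Wnt2*, *Wnt9b* and *Rhbg* rest on at most 35 counts per mouse, which limits their precision.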

Other observations

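Cell types other than hepatocytes and endothelium were read from marker lists in the same fit. As background for the counts below, 5.04% of all tested genes were called higher and 4.68% lower. Of 8 myofibroblast markers, 2 fell, the collagen genes *Col1a1* and *Col1a2*, and the summed level of the list was 660 ± 355 CPM with vehicle and 201 ± 97.4 CPM with INT-767 (SD, n = 7 and 4). Of 7 markers of quiescent stellate cells, which are another known source of R-spondin in the liver, 0 passed, with sums of 338 ± 76.6 and 321 ± 44.8 CPM. Of 8 macrophage markers 2 fell, *Cd68* and *Csf1r*, with sums of 362 ± 74.3 and 218 ± 66.3 CPM. Of 7 cholangiocyte markers 0 passed, with sums of 1067 ± 467 and 779 ± 430 CPM, most of it *Spp1*, and vehicle mice 1 and 7 had the highest sums, 1939 and 1508 CPM. All 7 cholangiocyte markers had a log2 fold change below 0, with a median of -0.63. By edgeR, 5 of them were lower at an unadjusted *p* under 0.05, against 15.6% of all tested genes. Of 6 tested lymphocyte markers 0 passed, and of 5 mesothelial markers 1 rose, *Lrrn4*. The part of these cell types in the values of the Wnt genes was not tested.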
